A study of Mus musculus with 6 samples.

Results

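Immediate early genes were followed in RNA of mouse blood platelets. The group holds 10 genes, namely the AP-1 subunits Fos, Fosb, Jun, Junb and Jund, the transcription factors Egr1 and Atf3, the nuclear protein gene Ier2, and the feedback genes Dusp1 and Zfp36. They were taken by symbol from a table of 14975 genes, in which all 10 were listed. The genes were selected on measured values of these same libraries, so their differences between the groups are given as a description and without a test.

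The libraries came from young adult female mice of C57BL/6 background in which platelets, the anucleate blood cells that seal wounds, were examined before overt acute myeloid leukemia (AML). Control mice had been irradiated and given normal bone marrow, and their libraries carry the label WT. Pre-AML mice, with the label AML, were irradiated recipients of hematopoietic stem and progenitor cells transformed by a retrovirus that expresses the fusion oncogene MLL-AF9 together with GFP, and the study uses the name pre-AML for recipients 1 week after transplantation, while the labels give no week. Each group had 3 libraries, numbered as in the labels (control 1 to 3, pre-AML 1 to 3). Platelets were enriched from blood by removal of cells that carry CD45, a leukocyte protein, or Ter119, an erythroid protein, and polyadenylated RNA was amplified by SMART-Seq2. The sources differ on whether a library is 1 mouse or a pool, so errors measure the spread between libraries, which may be technical in part. A transplanted recipient carries both donor and host blood cells, and the origin of the platelets was not measured in these libraries.

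Between 11936818 and 17779371 reads per library were recovered from the deposited FPKM values, which count reads relative to the length of the gene and the size of the library. The library labelled pre-AML 3 stood apart, at 41.9 on a first principal component that held 70.2% of the variance, while the other 5 libraries lay between -12.7 and -2.12. Its FPKM had been divided by a size 1.31 times its recovered reads, against 0.983 to 1.01 times in the others, so an equal share of reads gives a lower FPKM in pre-AML 3. Platelet markers defined all libraries, with 38150 to 79255 FPKM of Pf4, the gene of platelet factor 4. Results are therefore given with and without pre-AML 3.

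Immediate early genes are transcribed within minutes of a stimulus and without new protein synthesis. MAP kinases and calcium act on factors that already sit at their promoters, mainly SRF with its ternary complex partners and CREB. Proteins of the Fos and Jun families pair into AP-1, which binds the TPA response element, while Dusp1 dephosphorylates MAP kinases and Zfp36, or tristetraprolin, binds AU-rich elements of mRNA and speeds its decay. Their mRNAs are typically short-lived. Platelets have no nucleus and carry mRNA made in the megakaryocyte.

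The promoters of Fos, Fosb and Dusp1 are shown because these genes stood above every control library in all 3 pre-AML libraries and RefSeq gives their sequences. The stretches are the 200 bases before the transcript start on GRCm38.p6, 5′ to 3′ along the gene's strand, at chr12:85473690-85473889 (plus strand) for Fos, chr7:19310046-19310245 (minus strand) for Fosb and chr17:26508473-26508672 (minus strand) for Dusp1. Capitals mark the cAMP response element (CRE) TGACGTCA, its 5-base core TGACG, and TATAAA.
Fos: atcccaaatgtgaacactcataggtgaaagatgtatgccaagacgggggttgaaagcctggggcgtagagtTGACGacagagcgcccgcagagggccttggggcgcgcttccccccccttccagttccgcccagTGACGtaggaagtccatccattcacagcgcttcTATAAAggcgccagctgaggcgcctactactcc
Fosb: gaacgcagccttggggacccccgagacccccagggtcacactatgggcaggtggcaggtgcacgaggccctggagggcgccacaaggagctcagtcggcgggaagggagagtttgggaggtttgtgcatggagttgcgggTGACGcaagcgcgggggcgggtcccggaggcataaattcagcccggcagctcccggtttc
Dusp1: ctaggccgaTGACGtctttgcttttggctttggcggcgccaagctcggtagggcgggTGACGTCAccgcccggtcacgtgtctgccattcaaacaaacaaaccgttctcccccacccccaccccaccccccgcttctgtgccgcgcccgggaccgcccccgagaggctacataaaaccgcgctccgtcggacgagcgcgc

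Of the 10 genes, 8 had a promoter entry of 300 bases, 250 before and 50 after the start, which was searched on both strands beside 32851 promoters of the same length. The CRE core TGACG, a docking sequence of CREB and ATF proteins, was present in 5 of the 8 (Fos, Fosb, Junb, Dusp1 and Atf3) and in 20.8% of all promoters. The whole CRE TGACGTCA, which holds the core on both strands, was found in Dusp1 and in 1.79% of all promoters. GGGCGG, the GC box, lay in 6 of the 8 and in 35.7% of all, and TATAAA in Fos and Junb and in 13.6%. CCAAT was found in 3 of the 8 and in 37.4% of all, and GCGTGGG, the core that EGR proteins bind, in Junb and in 5.04%. The CArG box, the sequence that SRF recognises, matched in Zfp36 only, against 1.63% of all promoters. TGANTCA, a loose form of the TPA response element with any base at N, was in 0 of the 8 and in 7.81% of all. Factor binding was not measured in this study, and the windows do not reach more distant elements. The window of Jund was set on a RefSeq start at 70697739 and does not reach the GENCODE start at 70698949.

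The other end of these transcripts carries the AU-rich sequence through which Zfp36 and related proteins act. The pentamer ATTTA occurred in the 3′ UTR of 9 of the 10 genes (90.0%), with Ier2 as the exception, and in 64.8% of the tested genes with an annotated 3′ UTR. Per kb of 3′ UTR the median was 2.89 pentamers for the 10 genes and 1.17 for the tested genes. Dusp1 and Fos had the highest densities, 5.80 and 4.91 per kb, with 4 pentamers each, and Fosb had 1 pentamer at 0.466 per kb. The longer element ATTTATTTA was present in Fos and Dusp1 (20.0% of the 10 genes) and in 5.36% of the tested genes. Windows of 30 bases around it are shown from the GENCODE M21 transcripts, with the element in capitals.
Fos: tgtgttttcaATTTATTTAttaagatggat
Dusp1: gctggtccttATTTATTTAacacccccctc

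All 10 genes were low in control platelets. Junb had the highest control mean, 2.35 ± 0.875 FPKM (SD, n = 3), followed by Jun (1.50 FPKM), Ier2 (0.978 FPKM), Zfp36 (0.865 FPKM) and Fos (0.617 FPKM). Dusp1, Atf3, Egr1, Jund and Fosb had means of 0.383, 0.259, 0.196, 0.0956 and 0.0211 FPKM. Neighbours in this order overlapped in their control ranges except for Fos and Dusp1. Among pre-AML libraries Dusp1, Junb and Fos had the highest means, 7.67, 6.00 and 5.47 FPKM, and the ranges of all neighbours overlapped. Only 6 of the 10 genes, namely Fos, Jun, Junb, Ier2, Dusp1 and Zfp36, reached the mean of 1 FPKM over the 6 libraries that the test across genes required, and without pre-AML 3 only Fos, Jun, Junb and Ier2 did.

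**Figure D1:**
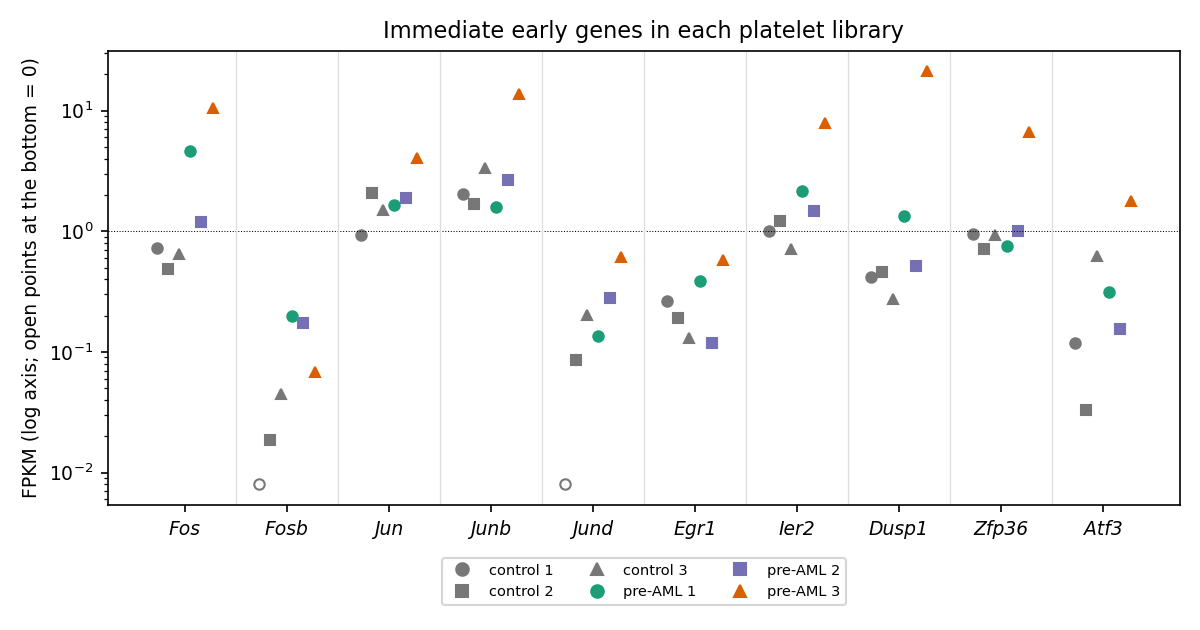
FPKM of the 10 immediate early genes (log axis) in each of the 3 control (gray) and 3 pre-AML (colored) libraries, with open points at the bottom for values of 0. Pre-AML 3 is the highest library for 9 of the 10 genes, and Fosb is highest in pre-AML 1.

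Fos, which encodes the AP-1 subunit c-Fos and lies on chromosome 12 from 85473890 to 85477274, was the gene with the clearest separation. Its level was 0.724, 0.483 and 0.643 FPKM in the controls and 4.63, 1.18 and 10.6 FPKM in the pre-AML libraries, in numerical order. All pre-AML libraries were above all controls, by 7.51-fold, 1.92-fold and 17.2-fold of the control mean. These values rest on 16 to 20 reads in the controls and on 145, 42 and 581 reads in the pre-AML libraries. The 95% counting interval of pre-AML 1, 3.91 to 5.45 FPKM (exact Poisson, counting error only), lay above those of all controls, whereas that of pre-AML 2, 0.853 to 1.60 FPKM, overlapped the interval of control 1, 0.442 to 1.12 FPKM. On the log2(FPKM + 1) scale, which understates changes of low genes, the group difference was 1.69 (standard error 0.50 from limma) and 1.12 (standard error 0.32) without pre-AML 3.

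Fosb, a close relative of Fos on chromosome 7 from 19302696 to 19310118, had another order among the libraries. It was at 0, 0.0188 and 0.0444 FPKM in the controls and at 0.199, 0.175 and 0.0680 FPKM in the 3 pre-AML libraries. Pre-AML 3, the highest library for the other 9 genes, was the lowest of its group here and held 15.4% of the group's summed FPKM. Reads were few, with 0, 1 and 2 in the controls and 10, 10 and 6 in the pre-AML libraries. Scaled for library size, the ratio of pooled pre-AML to pooled control reads was 6.32 (95% counting interval 1.94 to 32.6), and 8.85 (2.63 to 46.5) without pre-AML 3. These 2 intervals cover counting error only, leave out the spread between libraries and are no test of the groups. The interval of each pre-AML library overlapped that of control 3.

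The Jun family did not separate the groups. Jun, on chromosome 4 from 95049036 to 95052222, was at 0.935, 2.07 and 1.50 FPKM in the controls and at 1.65, 1.87 and 4.05 FPKM in the pre-AML libraries. Pre-AML 1 and pre-AML 2 lay inside the control range, and pre-AML 3 was 1.95-fold above the highest control. Junb, on chromosome 8 from 84976909 to 84978748, had 2.03, 1.69 and 3.34 FPKM in the controls and 1.58, 2.67 and 13.7 FPKM in the pre-AML libraries. Its pre-AML 1 value was below every control, pre-AML 2 was within their range, and pre-AML 3 was 4.11-fold above the highest control. Junb therefore had a log2(FPKM + 1) difference of 0.66 (standard error 0.56) with all libraries and of -0.09 (standard error 0.24) without pre-AML 3. For Jun the difference was 0.46 (standard error 0.28) and 0.17 (standard error 0.21). Jund, also on chromosome 8, from 70697739 to 70700616, was near the limit of detection at 0 to 0.202 FPKM in the controls and 0.135, 0.278 and 0.617 FPKM in the pre-AML libraries, on 0 to 4 and 3, 7 and 24 reads.

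Within a library the AP-1 subunits thus stood in unequal ratios. The FPKM ratio of Fos to Jun was 0.775, 0.233 and 0.428 in the controls, 2.81 in pre-AML 1, 0.633 in pre-AML 2 and 2.62 in pre-AML 3. Both the first and the last of these were above all controls, and pre-AML 2 was within their range. The ratio of Junb to Fos was 2.80 to 5.20 in the controls and lower in every pre-AML library, at 0.341, 2.26 and 1.30. Since Fos, the divisor, was itself above all controls in every pre-AML library, this ratio is no separate observation.

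**Figure D2:**
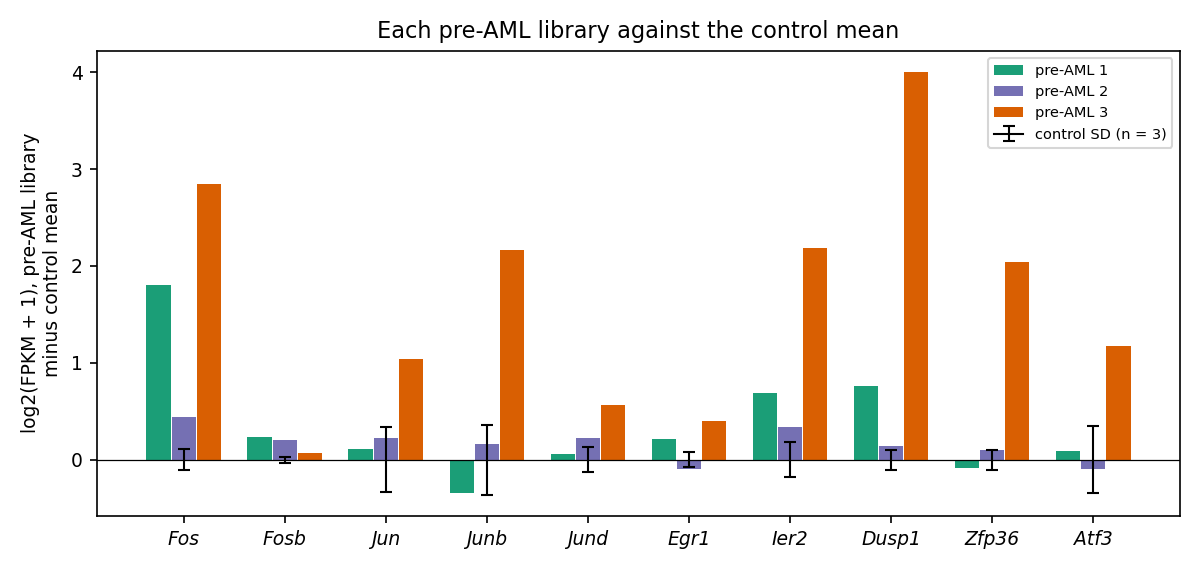
Difference in log2(FPKM + 1) between each pre-AML library and the control mean for each gene, with the SD of the 3 controls as black bars around 0. Fos reaches 1.80 in pre-AML 1 and 2.84 in pre-AML 3, Dusp1 reaches 4.00 in pre-AML 3, and Junb, Zfp36, Egr1 and Atf3 are at or below 0.21 in pre-AML 1 and pre-AML 2.

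Among the other nuclear factors, Ier2 was above every control in all pre-AML libraries. Ier2, a single-exon gene on chromosome 8 from 84661331 to 84662852 whose product acts in the nucleus, had 1.01, 1.21 and 0.717 FPKM in the controls and 2.17, 1.48 and 7.93 FPKM in the 3 pre-AML libraries. Pre-AML 2 exceeded the highest control by 1.22-fold, on 34 against 26 reads, and their counting intervals overlapped (1.02 to 2.07 and 0.792 to 1.78 FPKM). The log2(FPKM + 1) difference was 1.07 (standard error 0.42), and 0.51 (standard error 0.19) without pre-AML 3.

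Egr1, a zinc finger factor induced by growth factors, overlapped between the groups. Its level was 0.266, 0.190 and 0.131 FPKM in the controls and 0.386, 0.118 and 0.574 FPKM in the pre-AML libraries, so that pre-AML 2 was the lowest of the 6 libraries. That value rests on 8 reads, against 7 in control 3, and their counting intervals overlapped. Atf3, a stress-induced bZIP factor on chromosome 1 from 191170296 to 191183333, was at 0.119, 0.0330 and 0.624 FPKM in the controls and at 0.314, 0.154 and 1.79 FPKM in the pre-AML libraries. Control 3 was above both pre-AML 1 and pre-AML 2 for this gene, and the log2(FPKM + 1) difference of 0.39 was -0.0025 without pre-AML 3. Atf3 rests on 3, 1 and 16 reads in the controls and on 9, 5 and 90 in the pre-AML libraries. The counting intervals of control 3 and pre-AML 1 overlapped (0.357 to 1.01 and 0.144 to 0.596 FPKM).

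Dusp1, the phosphatase that ends MAP kinase signals, showed the widest range of the 10 genes. It lies on chromosome 17 from 26505591 to 26508472 and had 0.415, 0.461 and 0.273 FPKM in the controls and 1.34, 0.517 and 21.1 FPKM in the 3 pre-AML libraries. Pre-AML 3 was 55.2-fold above the control mean, on 1518 reads against 10 to 20, and held 91.9% of the group's summed FPKM. Pre-AML 1, on 55 reads, had a counting interval of 1.01 to 1.75 FPKM that lay above those of all controls, while pre-AML 2 and control 2 differed by 24 against 20 reads and their intervals overlapped. The log2(FPKM + 1) difference was 1.63 (standard error 0.84), and 0.45 without pre-AML 3. Dusp1 was below Fos in pre-AML 1 and pre-AML 2, with FPKM ratios of 0.290 and 0.436, and at 2.00 times Fos in pre-AML 3, against ratios of 0.424 to 0.955 in the controls.

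Zfp36, on chromosome 7 from 28376784 to 28379228, was high in pre-AML 3 alone. The controls had 0.947, 0.713 and 0.934 FPKM, while the pre-AML libraries had 0.754, 0.998 and 6.67 FPKM. Pre-AML 1 fell within the control range and pre-AML 2 exceeded its upper end by 1.05-fold. The log2(FPKM + 1) difference of 0.69 (standard error 0.50) became 0.0083 without pre-AML 3.

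**Figure D3:**
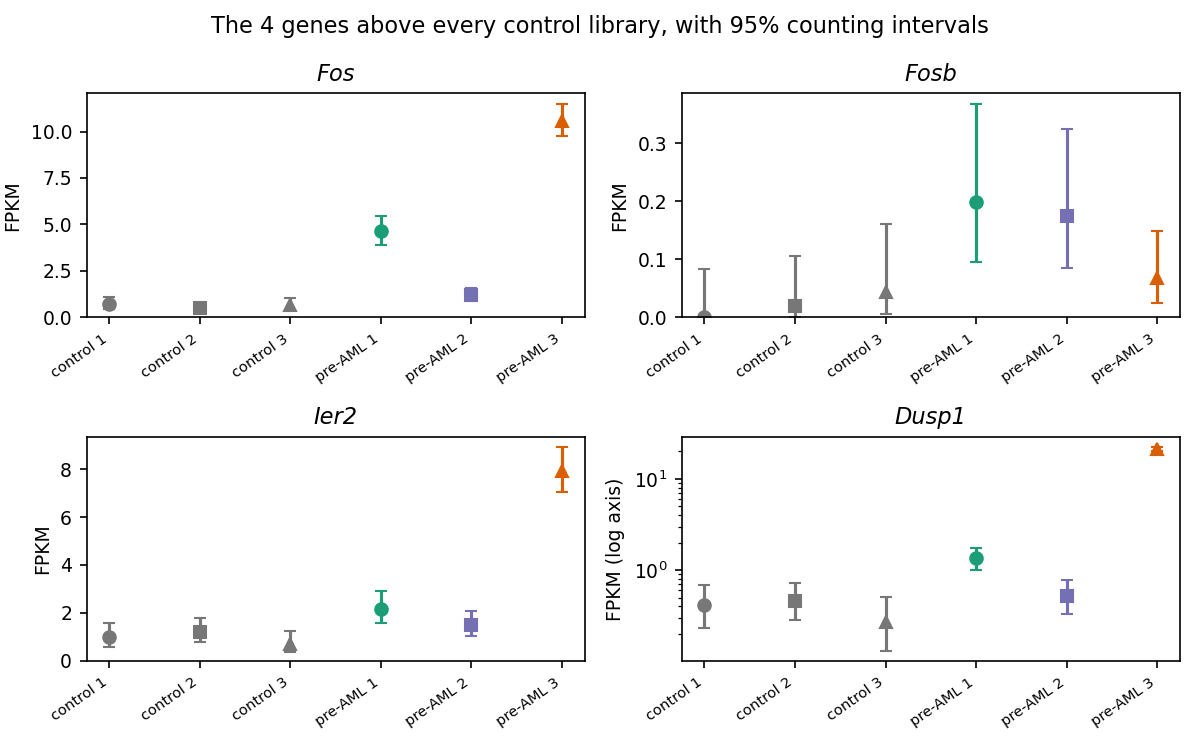
FPKM of Fos, Fosb, Ier2 and Dusp1 (log axis for Dusp1) in each library with exact Poisson 95% intervals, which cover counting error only. The intervals of pre-AML 1 lie above all controls for Fos and Dusp1, and those of pre-AML 2 overlap at least 1 control for each of the 4 genes.

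Across the group, 4 of the 10 genes (Fos, Fosb, Ier2 and Dusp1) had all pre-AML libraries above all controls, where 7.53% of all listed genes and 6.14% of the tested genes did. The same 4 genes had pre-AML 1 and pre-AML 2 above all controls, as did 11.0% of listed genes. Taken by library, 5 of the 10 genes exceeded every control in pre-AML 1, 6 in pre-AML 2 and 10 in pre-AML 3, against 23.5%, 26.2% and 42.6% of listed genes. Since the genes were selected on these values, nothing is read from the counts. The summed FPKM of the group was 6.44, 6.96 and 8.41 in the controls and 13.2, 9.45 and 67.2 in the 3 pre-AML libraries. The median log2(FPKM + 1) difference of the 10 genes was 0.56, against 0.021 for all listed genes, and it was 0.15 without pre-AML 3.

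**Figure D4:**
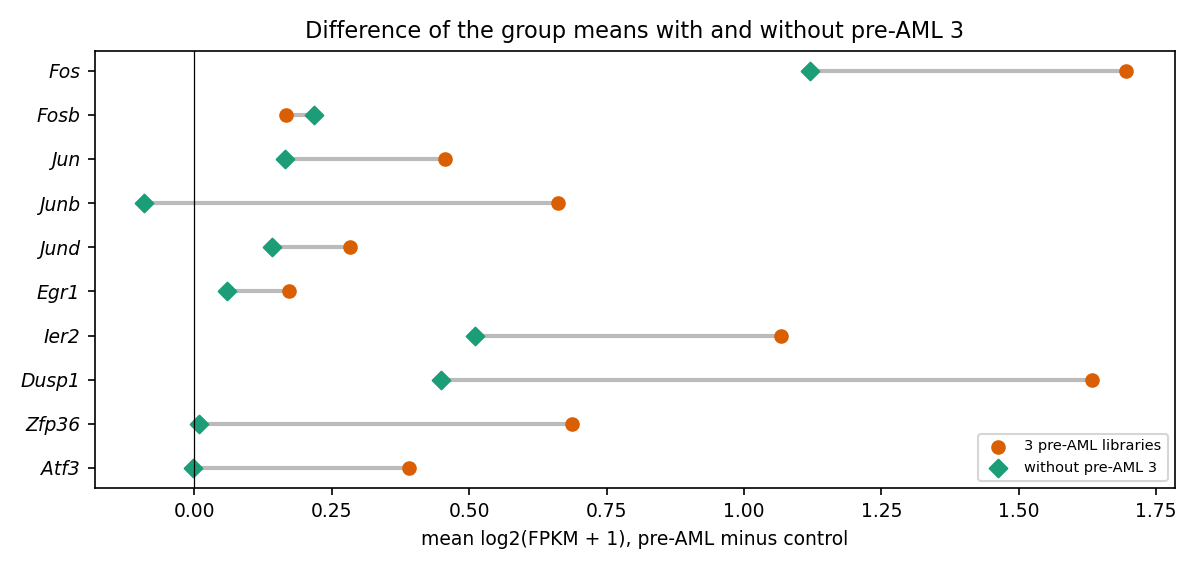
Difference of the group means in log2(FPKM + 1), pre-AML minus control, for each gene with all 3 pre-AML libraries (circles) and without pre-AML 3 (diamonds). Without pre-AML 3 Fos stays at 1.12, Ier2 at 0.51 and Dusp1 at 0.45, Fosb moves up to 0.22, and Junb, Zfp36 and Atf3 lie between -0.09 and 0.0083.

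The wider set of immediate early genes was examined through a list of 50 other such genes in the table. In limma-trend with Benjamini-Hochberg adjustment over 4412 genes, 1 gene had an adjusted p under 0.05 (0.0227% of those tested), the lymphocyte protease gene Gzma, and 401 had an unadjusted p under 0.05. Without pre-AML 3 it was 2 of 4258 (0.0470%), Gzma and the leukocyte adaptor gene Tyrobp, and 382 at the unadjusted level. Of the other immediate early genes 15 were tested, 9 had a difference above 0 and 6 below 0, and 0 passed in either direction, also at an unadjusted p under 0.05. Their median log2(FPKM + 1) difference was 0.05, against -0.055 for all tested genes. Without pre-AML 3, 12 of them were tested, and the median turned to -0.07, against -0.027 for all tested genes. Groups did not overlap, with pre-AML higher, for 8 of the 50 (16.0%, against 7.53% of listed genes). By library, 14 of the 50 were above every control in pre-AML 1, 13 in pre-AML 2 and 31 (62.0%) in pre-AML 3, against 23.5%, 26.2% and 42.6% of listed genes.

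The 3 tested genes of this list with the smallest p were high mainly in pre-AML 3. Nfkbia, the gene of the NF-κB inhibitor IκBα, had 1.01, 2.47 and 1.72 FPKM in the controls and 2.38, 1.69 and 15.7 FPKM in the pre-AML libraries. Ier3 and Klf2, a survival gene and a zinc finger factor of quiescent lymphocytes and endothelium, had 4.59 and 6.89 FPKM in pre-AML 3, with highest controls of 0.691 and 0.731 FPKM. For Ier3, Klf2 and Nfkbia the log2(FPKM + 1) differences of 0.91, 1.005 and 1.001 had adjusted p of 0.523, 0.536 and 0.552 from limma-trend, and Nfkbia was at 0.18 without pre-AML 3. Ier3 and Klf2, with control means of 0.356 and 0.366 FPKM, passed the filter of 1 FPKM through pre-AML 3 and were not tested without it. Nr4a1, an orphan nuclear receptor gene, and Zfp36l1, a relative of Zfp36, were picked after their values were seen as genes whose groups did not overlap. Nr4a1 was at 0.170, 0.324 and 0.0717 FPKM in the controls and 0.621, 0.623 and 1.32 FPKM in the pre-AML libraries. For Zfp36l1 these were 0.399, 0.380 and 0.450 FPKM, and 0.830, 1.13 and 1.96 FPKM.

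Genes upstream and downstream of this response were compared in the same test. In each of the 6 further lists 0 genes passed in either direction, at an adjusted or an unadjusted p under 0.05, and also 0 passed the adjusted threshold without pre-AML 3. Among the factors that bind immediate early promoters 9 of 15 listed genes were tested, with 3 above 0 and 6 below, and Mef2a had a log2(FPKM + 1) difference of -0.31 while Mef2d and Mrtfa had 0.42 and 0.30 (adjusted p of 0.522, 0.562 and 0.603 from limma-trend). Mef2d, at 2.19 FPKM in pre-AML 3, passed the filter of 1 FPKM through that library and was not tested without it. In the MAP kinase cascade, with 16 of 35 genes tested, 6 were above 0 and 10 below. Mknk2 and Map2k5, which encode kinases of this cascade, had differences of 0.24 and -0.25 (adjusted p of 0.547 and 0.603 from limma-trend). The bZIP partners of AP-1, with 11 of 19 tested, had 7 above 0 and 4 below, and Bach1, Nfe2l1 and Atf5 were at -0.36, 0.35 and 0.40.

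Among the feedback phosphatases and inhibitors 5 of 16 genes were tested, 1 above 0 and 4 below. Dusp6, a MAP kinase phosphatase, had 0.762, 1.14 and 1.26 FPKM in the controls and 0.960, 1.25 and 3.35 FPKM in the pre-AML libraries, a difference of 0.39 that was 0.041 without pre-AML 3. The platelet-abundant Dusp3 and Dusp14 were at -0.14 and -0.12. Of the genes for decay of AU-rich mRNA, 7 of 20 were tested, 1 above 0 and 6 below, with Cnot6, Cnot7 and Pabpc1 at -0.30, -0.26 and -0.22. The heat shock list, 5 of 10 tested, had 1 above 0 and 4 below, with Hsph1, Hspe1 and Hsp90aa1 at -0.26, -0.29 and -0.15.

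The macrophage and B cell marker sums were highest in pre-AML 3, the highest library for 9 of the 10 immediate early genes. The neutrophil sum, given below, was not. The 12 macrophage markers summed to 0.470 to 1.71 FPKM in the controls and to 0.525, 2.10 and 751 FPKM in the 3 pre-AML libraries, with 3, 3 and 12 of the 12 above every control. In these libraries 23.5%, 26.2% and 42.6% of all listed genes were above every control, shares to read beside each marker count. Retnla and C1qb, macrophage genes, had 375 and 128 FPKM in pre-AML 3, while Marco, Vsig4 and Timd4 were at 0 in all controls. The 9 B cell markers summed to 1.51 to 1.91 FPKM in the controls and to 0.891, 20.1 and 231 FPKM in the pre-AML libraries, with 0, 8 and 9 above every control, and Pax5 and Blk were at 0 in all controls. Cd74, the invariant chain of MHC class II, had 168 FPKM and Cd79a, a subunit of the B cell receptor, 23.6 FPKM in pre-AML 3. Cd74 thus made up most of the B cell sum there. Over the 8 B cell markers below 1 FPKM in controls, which leave out Cd74, the sum was 0.177 to 0.755 FPKM in the controls. In the pre-AML libraries it was 0.219, 4.87 and 63.5 FPKM.

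Markers of T and NK cells were higher in all pre-AML libraries, with a summed level of 19.1 to 28.6 FPKM in the controls and 36.3, 34.6 and 41.0 FPKM, and with 8, 7 and 10 of 11 above every control. Gzma had 0, 0.353 and 0 FPKM in the controls and 7.25, 4.61 and 8.90 FPKM in the pre-AML libraries (log2 difference 2.80, standard error 0.24, adjusted p = 0.00809 from limma-trend). This call was lost, with 0 genes past the threshold, with no filter, TPM scaling or limma-voom and without control 1, control 3 or pre-AML 1. Nkg7, at 18.9 to 28.2 FPKM in the controls and within this range in the pre-AML libraries, made up most of the sum. Over the 10 markers below 1 FPKM in controls the sum was 0.139 to 0.397 FPKM in the controls and 11.0, 6.65 and 18.4 FPKM in the pre-AML libraries. Cd3g, Ncr1 and Prf1 were at 0 in all controls. Of the 13 monocyte markers 3, 9 and 11 were above every control in the 3 pre-AML libraries, and Ccr2, Cx3cr1 and Cd14 were at 0 in all controls. The sum of this list, 4816 to 5524 FPKM in the controls and 4997 to 5283 FPKM in pre-AML, came mostly from genes that platelets express. Over its 10 markers below 1 FPKM in controls it was 0.402 to 1.10 FPKM in the controls and 5.31, 8.04 and 228 FPKM in the pre-AML libraries.

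The sums of the other lists moved in different directions. The 11 neutrophil markers summed to 3.19 to 3.66 FPKM in the controls and to 4.998, 2.18 and 2.60 FPKM in the pre-AML libraries, with 5, 4 and 2 above every control and Ly6g, Mpo, Elane and Retnlg at 0 in the controls and in pre-AML 3. The 15 platelet markers summed to 91469 to 115356 FPKM in the controls and to 92643, 94053 and 62892 FPKM, with 2, 7 and 1 above every control. The 8 erythroid markers summed to 2351 to 2653 FPKM and to 2991, 2885 and 2378 FPKM, with 1, 4 and 3 above every control. Progenitor markers, 10 in number, summed to 1.78 to 3.58 FPKM and to 2.93, 2.02 and 4.04 FPKM, with 3, 2 and 3 above every control. Flt3 was at 0 in all controls, while Hoxa9, Hoxa10 and Myb were at 0 in pre-AML 3. Over the 9 progenitor markers below 1 FPKM in controls the sum was 1.51 to 1.83 FPKM in the controls. In the pre-AML libraries it was 2.29, 1.61 and 3.62 FPKM. Prtn3 had 0.485 to 0.985 FPKM in the controls and 1.26, 0.459 and 2.90 FPKM in the pre-AML libraries. For Meis1 these were 0.702 to 0.997 FPKM, and 0.835, 0.869 and 0.606 FPKM. The 10 endothelial and mesothelial markers summed to 174 to 213 FPKM and to 191, 203 and 155 FPKM, with 3, 2 and 5 above every control. Over the 9 of them below 1 FPKM in controls the sum was 1.64 to 3.45 FPKM in the controls and 4.77, 3.47 and 4.84 FPKM in the pre-AML libraries. For the neutrophil, erythroid and progenitor lists the sums over such low markers overlapped between the groups. The part of leukocyte RNA in the levels of the immediate early genes was not tested, and in bulk RNA a different number of cells of a type cannot be told apart from a different amount of RNA per cell.

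**Figure D5:**
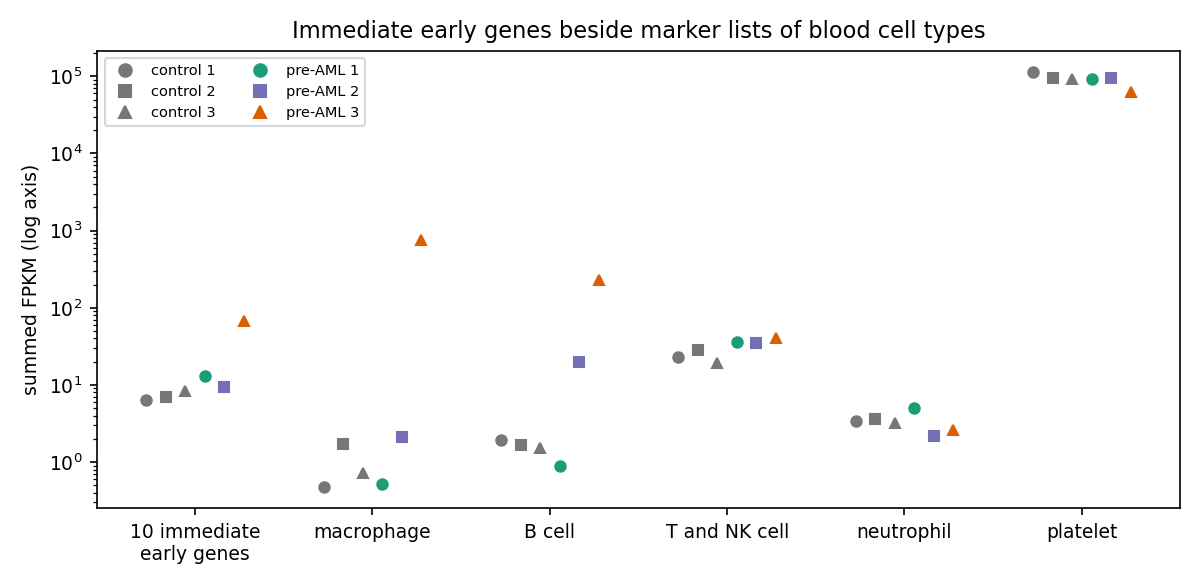
Summed FPKM (log axis) of the 10 immediate early genes and of 5 marker lists in each library. The sum of the immediate early genes is 67.2 FPKM in pre-AML 3, where the macrophage and B cell lists reach 751 and 231 FPKM and the platelet list is at its lowest, 62892 FPKM. Cd74 alone makes 168 FPKM of the B cell sum there.

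Among the genes whose levels ran most closely with the mean log2(FPKM + 1) of the 10 genes were Trp53, Cd48, Eif3d and Cd2, with Pearson r of 0.995, 0.993, 0.993 and 0.992 over the 6 libraries. Cd48 and Cd2 encode adhesion proteins of leukocytes, Trp53 the tumor suppressor p53 and Eif3d a translation initiation factor. These correlations rest largely on pre-AML 3, and r was 0.917, 0.925, 0.899 and 0.942 over the other 5 libraries. The share of all genes with such an r over these 5 was not computed. Trp53, Cd48 and Cd2 were below 1 FPKM in each of them and passed the filter of 1 FPKM through pre-AML 3. An r of at least 0.95 was found for 121 of 4406 tested genes (2.75%). Cd48 was at 0 FPKM in all controls and at 0.759, 0.557 and 8.69 FPKM in the 3 pre-AML libraries, and Cd2 was likewise at 0 and then at 0.777, 0.495 and 6.84 FPKM.

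Some of the 10 genes are unusual in gene structure and base composition. Jun, Junb, Jund and Ier2 have a single exon (40.0% of the 10 genes, against 3.27% of tested genes). The GC content of the transcripts was 51.9% for Fos and up to 67.1% for Jund, with a median of 55.8%, against 50.3% for tested genes. Across 4397 genes, which are not independent, the Spearman correlation of a library's deviation with GC content was -0.30, -0.40 and -0.32 in the controls and -0.045, 0.31 and 0.50 in the 3 pre-AML libraries. With each library's trends with length and GC content removed, the log2(FPKM + 1) difference was 1.64 for Fos, 1.52 for Dusp1, 0.82 for Ier2, 0.60 for Zfp36, 0.40 for Junb and 0.33 for Jun. Without pre-AML 3 it was 1.12 for Fos, 0.35 for Ier2, 0.11 for Jun and -0.26 for Junb.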

How the data were processed

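The 6 libraries hold platelet RNA, 3 from each group. The authors mapped reads to mm10 with STAR, tested with DESeq2, and deposited FPKM values per gene and library. The counting program and annotation are not given in the sources used here. With exon lengths of GENCODE M21, found for 14910 of 14975 genes, 77.7% to 84.7% of values in each library were whole reads within 0.1 read, and reads were estimated from them. In control 1, 3 reads on a transcript of 2 kb give 0.128 FPKM. Log2(FPKM + 1) values of genes averaging 1 FPKM or more were compared with limma-trend (limma 3.58.1, R 4.3.3) and Benjamini-Hochberg adjustment, threshold 0.05. The script for this test was checked on simulated data. No count model was the main test because FPKM are not counts. Python 3.11.15, pandas 2.3.3 and numpy 2.4.6 were used. Named are all 10 genes, the 3 tested genes with the smallest p of each pathway list, the 5 genes correlating best with the group, and 2 markers of each raised list and of the platelet list. Of these, 2 genes are not reported here. The genes and lists were chosen with earlier results of these data known. Alternatives were another pseudocount, no filter, TPM scaling, quantile normalization, removal of length and GC trends, a replicate block, limma-voom on estimated reads, and leaving out each library. Sums over weakly expressed markers of the monocyte, T and NK cell and other lists were added after seeing the data.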

Additional observations from a re-analysis of the deposited data

How the results depend on the processing

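The group difference turned below 0 for Junb (-0.09) and Atf3 (-0.0025), both without pre-AML 3. Over its alternatives the difference of Fos was between 1.12 and 2.77, that of Ier2 between 0.51 and 1.78, that of Dusp1 between 0.45 and 2.99 and that of Zfp36 between 0.0083 and 1.29. The median of the 10 genes, 0.56, was 1.04 with a pseudocount of 0.1, 0.70 with TPM scaling and 0.15 to 0.85 with 1 library left out, lowest without pre-AML 3, and it could not be given under quantile normalization, length and GC correction or limma-voom, which used tested genes only. The number of genes above every control, 4, was 4 to 6 with 1 library left out, with 6 without control 3 or pre-AML 1. Over all genes, 1 higher gene passed, and 0 passed with no filter, TPM scaling or limma-voom, and 0 to 2 with 1 library left out, with 0 without control 1, control 3 or pre-AML 1. Without pre-AML 3 the 2 higher and 0 lower genes became 0 higher with no filter and 1 lower with a pseudocount of 0.1. Same-numbered libraries of the 2 groups correlated at -0.043, -0.116 and -0.174 in their deviations from group means. Pre-AML 3 pulls the mean of its group, and control 3 correlated at 0.138 and 0.169 with pre-AML 1 and pre-AML 2. These values therefore cannot show whether the numbers pair the libraries. With all libraries the replicate block cannot change the differences of the 10 genes (median 0.56), because each number occurs once in each group, and only their errors can change. With it 1 gene passed, and without pre-AML 3 the replicate block gave 5 higher and 5 lower genes. Pathway genes past the threshold numbered 0 in every setting. Depth limits Fosb and Jund, which rest on 0 to 4 reads per control library, and also Atf3 and Egr1, with 1 to 16 and 7 to 14.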
